A study of Mus musculus with 8 samples.

Results

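The genes described are the chemokines and the receptors named for them, as printed on a mouse expression array. A probe was a member if its gene name in the array design was Ccl, Cxcl, Ccr or Cxcr directly followed by a number, with an optional letter, or was Cx3cl1 or Xcl1. The rule found 67 of 39429 probes, on 76 spots, for 52 of the 30199 gene names of the array. They name 20 CC ligands, 13 CXC ligands, the CX3C ligand Cx3cl1, the XC ligand Xcl1, 10 CC receptors and 7 CXC receptors, and no Ccl21 name was found. The rule reads gene names, not values.

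RNA came from the left ventricle (septum, free wall and apex homogenised together) of male C57Bl/6j mice, an inbred strain. Sodium made up 0.4% of the normal salt diet and 0.05% of the low salt diet, each given to 4 mice from 8 weeks of age until they were killed 8 weeks later, at 16 weeks. Each of the 4 arrays, all on 1 slide, held 2 mice of the same diet, the odd-numbered mouse in Cy3 and the even-numbered mouse in Cy5. The arrays of a diet lay next to each other, so that diet and position on the slide cannot be told apart, and the design asks how the salt content of the diet relates to expression in the heart. Each mouse was measured once, and p-values below rest on the spread between 4 mice of a diet, in pairs that share an array. In RNA of a whole ventricle, fewer cells of a type and less of an RNA per cell cannot be told apart.

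Chemokines are small secreted proteins that steer the movement of leukocytes and other cells through receptors coupled to G proteins. They are named for the spacing of conserved cysteines: CC, CXC, CX3C and XC. In the heart, Cxcl12 and its receptor Cxcr4 act in vessel and stem cell biology, Ccl2 and Ccr2 bring in monocytes, and Cx3cl1 is a membrane-bound ligand of endothelial cells that is released by proteases such as Adam10.

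Sequences are shown for the members whose values need them. The neighbours Ccl6 and Ccl9, with 0 protein-coding genes between them, both had higher values in every low salt mouse, and Cxcl14 had lower ones. Their RefSeq promoters (GRCm38.p6, minus strand, 250 bases before to 50 after the start) follow, from chr11:83593038-83593337, chr11:83578587-83578886 and chr13:56296502-56296801. In Ccl6 and Ccl9 the capitals mark the stretch that a local alignment paired (Ccl6 positions 192 to 265, Ccl9 positions 233 to 299), and in Cxcl14 they mark each CG dinucleotide.
Ccl6: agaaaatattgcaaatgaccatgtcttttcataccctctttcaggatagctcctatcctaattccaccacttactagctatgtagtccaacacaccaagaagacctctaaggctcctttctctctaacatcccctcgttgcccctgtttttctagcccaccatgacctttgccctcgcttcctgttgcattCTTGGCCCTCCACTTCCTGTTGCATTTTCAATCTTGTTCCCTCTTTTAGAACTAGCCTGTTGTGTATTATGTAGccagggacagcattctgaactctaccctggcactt
Ccl9: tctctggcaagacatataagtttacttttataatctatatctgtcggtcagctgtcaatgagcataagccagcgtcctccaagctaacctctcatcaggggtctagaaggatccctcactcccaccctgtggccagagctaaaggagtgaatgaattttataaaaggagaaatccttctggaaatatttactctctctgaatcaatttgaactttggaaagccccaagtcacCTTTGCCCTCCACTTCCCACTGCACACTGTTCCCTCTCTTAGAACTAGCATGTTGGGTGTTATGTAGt
Cxcl14: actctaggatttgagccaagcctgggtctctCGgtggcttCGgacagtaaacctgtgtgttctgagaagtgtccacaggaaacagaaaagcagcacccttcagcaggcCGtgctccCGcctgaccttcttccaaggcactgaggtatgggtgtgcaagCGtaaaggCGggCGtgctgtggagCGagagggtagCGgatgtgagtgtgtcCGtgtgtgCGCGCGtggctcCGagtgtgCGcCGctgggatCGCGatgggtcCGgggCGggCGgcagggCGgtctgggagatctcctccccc
The alignment paired 67 bases, of which 58 (86.6%) were identical, with 2 gaps. Ccl6 and Ccl9 hold 2 CG dinucleotides each and Cxcl14 holds 22.

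A RefSeq promoter was found for 37 of the 52 genes, 41 promoters in all. Their median was 4.0 CG dinucleotides, against 7.0 over the 32851 promoters of the table, and 58.5% of them held at most 5, against 43.6%. On either strand, TATAAA stood in 26.8% of the member promoters and in 13.6% of all. A form of the NF-kB site, GGGA and CC with 4 bases of any kind between them, stood in 46.3% against 20.7%, and TGANTCA, the AP-1 site, in 17.1% against 7.8%. Matches of different motifs overlapped in 0 of the 41 promoters. Such matches describe letters only.

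Ccr8 is shown because its probes differ in detection. Both lie in the coding sequence on chromosome 9 (mm9), the one at chr9:120003941-120004000 at its end, with the stop codon in capitals, and the other at chr9:120003293-120003352, 648 bases before it.
Ccr8 end probe: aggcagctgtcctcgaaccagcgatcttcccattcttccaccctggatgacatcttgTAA
Ccr8 inner probe: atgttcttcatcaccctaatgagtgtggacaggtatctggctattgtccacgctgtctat
The end probe was well above background in 8 of 8 mice and the inner probe in 0.

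Well above background is the scanner software's call that a spot exceeds its local background. Of the 52 genes, 22 had a probe above background in all 8 mice, 9 had their best probe in 4 to 7 mice, 8 in 1 to 3 mice, and 13 in no mouse. By probe, 39 of 67 (58.2%) were above background in at least 4 mice and are called measured below, close to the 58.9% of all probes. The 13 genes with no mouse above background were the CC ligands Ccl3, Ccl20, Ccl22 and Ccl26, the CXC ligands Cxcl3, Cxcl5, Cxcl13 and Cxcl15, and the receptors Ccr1, Ccr4, Ccr6, Cxcr1 and Cxcr5. Ccl1, Ccl4, Ccl28, Cxcl2, Cxcl17, Cxcr2, Cxcr3 and Xcl1 were seen in 1 to 3 mice. Detection went with the dye: of the 19 member probes above background in some mice but not all, 17 were above it in more Cy5 than Cy3 mice and 0 the other way. By diet, 146 readings of a member probe were above background on normal salt and 151 on low salt, and no probe was above background in all mice of a diet and in none of the other.

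**Figure D1:**
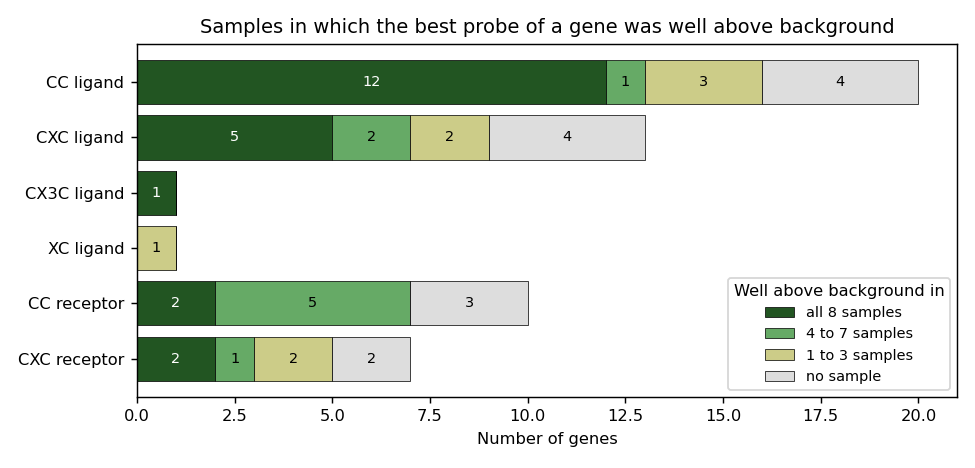
Number of genes of each chemokine class (horizontal axis, genes) by how many of the 8 mice had the gene's best probe well above background (colour). Of the 20 CC ligands, 12 were above background in all 8 mice; of the 10 CC receptors, 2 were, and 5 more were in 4 to 7 mice.

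Some ligands were detected in more mice than a receptor known to bind them. Ccl6 and Ccl9 were above background in all 8 mice, and Ccr1, which both bind, was in no mouse. Cxcl9, a ligand of Cxcr3, was in all 8, and Cxcr3, which T cells carry, was in 3 mice. The neutrophil ligand Cxcl1 was above background in 4 mice, all in Cy5, and its receptor Cxcr2 in 3, a near-equal count. These pairs were picked in that direction and are not a count over all pairs. Levels of different probes are not comparable on these arrays, and no mouse above background says only that the RNA was not detectable with that probe.

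No member passed the test between the diets. In limma, with dye as a term and array as a random block, 0 of the 39 measured member probes had a Benjamini-Hochberg adjusted p under 0.05, where 189 of all 23236 probes tested did (0.813%; 0.779% higher and 0.0344% lower). The smallest adjusted p of a member in limma was 0.152. At an unadjusted p under 0.05 there were 5 member probes (12.8%), against 11.1% of all probes: 2 higher (6.73% of all probes) and 3 lower (4.33%). The diet groups did not overlap for 6 member probes (15.4%, against 12.5% of all), 3 higher on low salt (7.68% of all probes) and 3 lower (4.8%). All differences given are log2 values, normal salt subtracted from low salt; 18 member probes had a positive one and 21 a negative one, with a median of -0.02 against 0.01 for all probes. The median half-width of a member's 95% interval was 0.39, so differences below about that size were not resolved for a typical member. These intervals are not adjusted for the number of probes tested, and larger differences could also miss the threshold. Ccl6 at 0.82 and 1 probe of Cxcl11 at -0.55 had intervals that exclude 0 and did not pass it. In all, 8.71% of the tested probes lay where neighbouring spots differed between the diets by over 0.2, called uneven parts below, and 171 of the 181 higher calls over all probes were there. Of the measured member probes 3 were in uneven parts: Ccr7, Cxcl11 (1 of 2) and a Ccl25 probe.

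**Figure D2:**
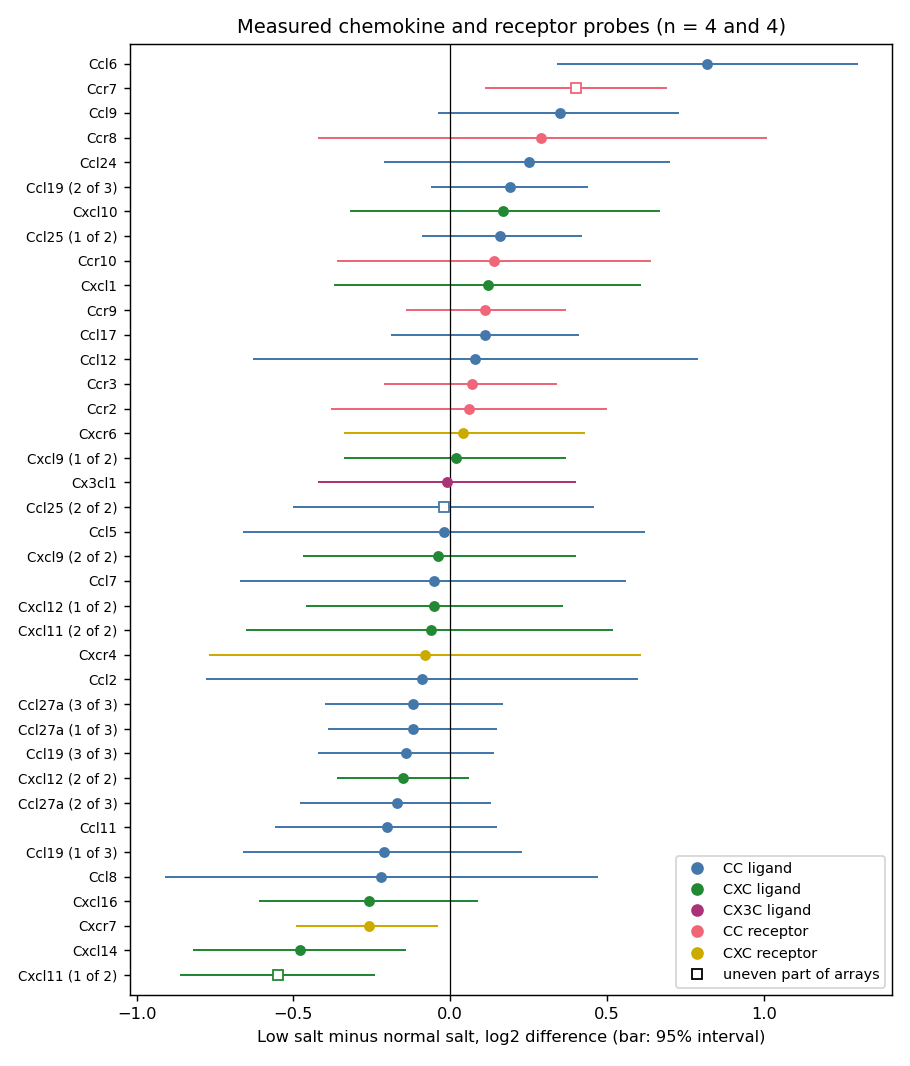
Difference of each measured probe of the genes described, low salt minus normal salt (horizontal axis, log2), with its 95% interval, coloured by class; open squares lie in uneven parts of the arrays. The points run from -0.55 for Cxcl11 (1 of 2) to 0.82 for Ccl6, and most intervals cross 0.

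Ccl6, a CC ligand made by macrophages, had the largest difference among the measured members. Its probe (chr11:83401997-83402056, mm9) read 9.32, 8.92, 9.65 and 9.69 in normal salt mice 1 to 4 and 10.26, 10.08, 10.19 and 10.33 in low salt mice 1 to 4. Every low salt mouse was above every normal salt mouse, and the normal salt mice were the more spread. The means were 9.39 ± 0.36 (SD, n = 4) and 10.21 ± 0.11 (n = 4), a difference of 0.82 ± 0.21 (SE; 95% interval 0.34 to 1.30), or 1.76-fold, with an unadjusted p of 0.00394 in limma and an adjusted p of 0.166. The lower normal salt values came from 1 array, whose mice averaged 9.12 against 9.67 on the other; the difference was 0.55 leaving out normal salt mice 1 and 2 and 1.09 leaving out normal salt mice 3 and 4. It was 0.32 when normexp was fitted on all spots.

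Ccl9, the neighbour of Ccl6 and also a macrophage product, had a smaller difference of the same sign. It read 9.86, 9.63, 9.52 and 9.85 on normal salt and 10.06, 10.13, 9.87 and 10.18 on low salt (chr11:83388223-83388282). The groups do not overlap, by a margin of 9.86 to 9.87. The difference was 0.35 ± 0.17 (SE), or 1.27-fold, with an adjusted p of 0.49 in limma. The probes of Ccl6 and Ccl9 shared no run of 18 bases with a probe of another name.

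Markers of macrophages and monocytes were given beside these genes, since both are made by such cells. Of 13 listed genes 12 were on the array, 11 were measured, and 0 were without a mouse above background. Of their 19 measured probes 14 were higher on low salt and 5 lower, with a median of 0.17, and 0 passed the threshold. Their summed intensity ran from 33400 to 43200 in normal salt mice and from 32500 to 39000 in low salt mice, while their mean log2 intensity ran from 8.83 to 9.01 and from 9.02 to 9.27. Most of each sum was 1 Itgam probe, at 14.12 to 14.91, where the other Itgam probes read 6.80 to 8.50. The summed levels overlap and the mean log2 levels do not. The list holds Cx3cr1, the receptor of Cx3cl1, and the largest differences of the list were those of the Cx3cr1 probes. No other probe of the list passed 0.39. Groups did not overlap for 4 probes of the list, all of Cx3cr1 except 1 of Csf1r. The gap between the mean log2 levels may therefore rest on Cx3cr1, and the levels without it were not tested. The part of these cells in the values of Ccl6 and Ccl9 was not tested either.

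Ccl2, the main monocyte attractant, had mice of both diets in the same range. It read 8.43, 8.00, 8.18 and 8.75 on normal salt and 8.38, 8.13, 8.01 and 8.49 on low salt. The difference was -0.09 with a 95% interval from -0.78 to 0.60 and overlapping groups. Its receptor Ccr2 was dim, above background in 4 mice, and read 7.07, 6.71, 6.81 and 6.51 against 6.78, 6.79, 6.76 and 7.02. The groups overlap and the difference was 0.06 (interval -0.38 to 0.50). Ccl7, another Ccr2 ligand, averaged 7.59 ± 0.32 on normal salt and 7.54 ± 0.13 on low salt, a difference of -0.05. Ccl12, also a Ccr2 ligand, averaged 8.07 ± 0.28 and 8.15 ± 0.42, a difference of 0.08. For Ccl12 the low salt arrays disagreed, at means of 8.45 and 7.85, and the difference was 0.38 leaving out low salt mice 3 and 4 and -0.22 leaving out low salt mice 1 and 2.

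The eosinophil ligands Ccl11 and Ccl24, which bind Ccr3, had differences of opposite sign. Ccl11 averaged 7.95 ± 0.17 on normal salt and 7.75 ± 0.13 on low salt, a difference of -0.20 with an adjusted p of 0.638 in limma. Ccl24 averaged 8.22 ± 0.32 and 8.47 ± 0.17, a difference of 0.25 with an adjusted p of 0.658. Its normal salt arrays averaged 7.99 and 8.45, and the difference was 0.02 leaving out normal salt mice 1 and 2 and 0.48 leaving out normal salt mice 3 and 4. Ccr3 itself averaged 6.90 ± 0.16 and 6.97 ± 0.21, a difference of 0.07, and was above background in 7 mice. Ccl8, a ligand of Ccr8 in mice, averaged 8.40 ± 0.25 and 8.18 ± 0.29, and its difference of -0.22 was -0.65 in the Cy5 mice alone and 0.21 in the Cy3 mice alone. Ccl5, a chemokine made by T cells, averaged 7.71 ± 0.10 and 7.69 ± 0.38, a difference of -0.02, with low salt mouse 1 the highest at 8.22. Ccl17, a ligand of Ccr4, was above background in 4 mice and averaged 6.67 ± 0.18 and 6.78 ± 0.13, a difference of 0.11.

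Ccl19, which guides T cells and dendritic cells through Ccr7, had 3 probes whose signs differ. The probe at chr4:42250105-42250164 read 8.19, 7.91, 8.06 and 7.81 on normal salt and 7.98, 7.57, 7.65 and 7.93 on low salt, a difference of -0.21. At chr4:42248630-42248689 the values were 7.64, 7.68, 7.74 and 7.61 against 7.57, 7.45, 7.45 and 7.65, a difference of -0.14. The probe at chr4:42248526-42248585 went the other way, with 7.99, 7.79, 8.03 and 7.89 against 8.33, 8.09, 8.03 and 8.01, a difference of 0.19. The first 2 spots lay in even parts with local differences of -0.01 and -0.05; the third had a local difference of 0.18, and 0.00 was left once the local trend was taken off. Groups overlap for all 3 probes, and the adjusted p in limma ran from 0.553 to 0.699.

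Ccl27a, a ligand of Ccr10, had 3 probes on chromosome 4 with differences of the same sign. Its means were 9.89 ± 0.11 and 9.76 ± 0.17 (difference -0.12), 9.92 ± 0.12 and 9.75 ± 0.19 (-0.17), and 9.12 ± 0.18 and 9.0 ± 0.09 (-0.12). These are not independent readings: the probes at chr4:41716357-41716416 and chr4:41716345-41716404 overlap by 48 bases, and the probe at chr4:41720610-41720669 shares 50 bases with a probe named Gm20878. Ccr10 was above background in 4 mice, all in Cy5. It averaged 6.70 ± 0.19 and 6.84 ± 0.38, a difference of 0.14, with low salt mouse 4 at 7.38 and the next low salt mouse at 6.79. Ccl25, which draws T cells to the gut through Ccr9, had 4 probes, of which 2 were above background in no mouse. The probe at chr8:4359916-4359975 read 8.15, 7.93, 7.92 and 7.90 on normal salt and 8.32, 8.14, 8.11 and 7.98 on low salt, a difference of 0.16 ± 0.11. The probe at chr8:4348678-4348737, in an uneven part, read 6.70, 6.66, 6.51 and 7.09 against 6.74, 6.59, 6.82 and 6.75, a difference of -0.02, or -0.28 with the local trend taken off. The diet groups overlap for both. Ccr9 averaged 6.85 ± 0.08 and 6.96 ± 0.15, a difference of 0.11, by 1 of its 2 probes, above background in 5 mice.

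Among the CXC ligands, Cxcl14 had values that do not overlap. Cxcl14 is a constitutively made chemokine of epithelia, fat and other tissues that attracts monocytes and dendritic cells. Its probe (chr13:56390078-56390137) read 11.18, 10.87, 10.76 and 10.81 on normal salt and 10.45, 10.25, 10.48 and 10.53 on low salt. The lowest normal salt mouse, at 10.76, stood above the highest low salt mouse, at 10.53. The means were 10.91 ± 0.19 and 10.43 ± 0.12, a difference of -0.48 ± 0.15 (interval -0.82 to -0.14), or 1.40-fold, with an unadjusted p of 0.011 in limma and an adjusted p of 0.274. Its spot lay in an even part, and the difference stayed -0.48 with the local trend taken off; it was -0.24 with normexp fitted on all spots.

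Cxcl11 had a probe whose groups do not overlap and a probe whose groups do, and the difference between the probes was not tested. Cxcl11 is an interferon-induced ligand of Cxcr3 and Cxcr7, and the strain C57Bl/6 is known to carry a frameshift in it. The first probe (1 of 2, chr5:92788640-92788699) read 11.60, 11.63, 11.80 and 11.44 on normal salt and 11.08, 10.83, 11.29 and 11.07 on low salt. Its groups do not overlap; the difference was -0.55 ± 0.14 (interval -0.86 to -0.24), or 1.46-fold, with an unadjusted p of 0.00333 in limma and an adjusted p of 0.152, the smallest of the members. The second probe (2 of 2, chr5:92788567-92788626) read 16.06, 16.51, 16.85 and 16.35 against 16.57, 16.45, 16.29 and 16.21, a difference of -0.06 ± 0.26 with overlapping groups. Neighbours of the first probe's spot differed by -0.20, just past the limit for an uneven part, and -0.34 was left with the local trend taken off.

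Cxcl11 probe 2 of 2 also shares letters with probes of other genes. A run of 24 bases at its positions 15 to 38 occurs in 6 other probes of the array, on one strand or the other, and 13 probes of other names share at least 18 bases with it, the longest run being 31.
Cxcl11 shared run: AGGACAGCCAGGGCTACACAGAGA
The 6 probes are named AK140579, Elk1, Glrx2, Med16, Ndor1 and Timmdc1. Such letters are typical of the B1 repeat, a short interspersed element found throughout the mouse genome. Probe 1 of 2 shares 19 bases with a probe for Rn4.5s, a small RNA related to that repeat, and no run of 24 bases with any other probe. How much of either signal came from Cxcl11 transcripts was not tested.

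Cxcl12, the ligand of Cxcr4 and Cxcr7 made by stromal and endothelial cells, had negative differences by both probes, with 0 past the threshold. Its probe at chr6:117131227-117131286 read 14.23, 13.82, 13.92 and 13.57 on normal salt and 14.20, 13.55, 13.81 and 13.79 on low salt, a difference of -0.05 (interval -0.46 to 0.36). The other probe, at chr6:117125026-117125085, read 8.12, 8.17, 7.99 and 8.15 against 7.94, 7.96, 7.92 and 8.00, a difference of -0.15 (interval -0.36 to 0.06). Only 1 low salt mouse reached into the normal salt range on the second probe, whose adjusted p in limma was 0.57. Cxcr4 read 7.68, 7.44, 7.5 and 7.32 on normal salt and 7.11, 7.11, 7.35 and 8.07 on low salt. Low salt mouse 4 was the highest of the 8 and low salt mice 1 and 2 were the lowest. The difference of -0.08 therefore turned on which array was used, at -0.38 leaving out low salt mice 3 and 4 and 0.22 leaving out low salt mice 1 and 2.

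The other receptor of Cxcl12, Cxcr7 (now Ackr3), is an atypical receptor that takes up the ligand without G protein signalling. It read 12.02, 12.16, 11.99 and 12.12 on normal salt and 11.80, 11.81, 11.85 and 11.80 on low salt (chr1:92111803-92111862). The lowest normal salt mouse, at 11.99, stood above the highest low salt mouse, at 11.85. The means were 12.07 ± 0.08 and 11.81 ± 0.03, a difference of -0.26 ± 0.10 (interval -0.49 to -0.04), or 1.20-fold, with an unadjusted p of 0.0283 in limma and an adjusted p of 0.386. Markers of endothelial cells, in which Cxcr7 is known to be made, had a median difference of -0.31 over 10 probes, 8 of them lower and 0 past the threshold. Their summed intensity ran from 82000 to 133000 on normal salt and from 56300 to 82500 on low salt, with 0 of 9 genes below background in every mouse. Their mean log2 intensity ran from 11.71 to 12 on normal salt and from 11.32 to 11.67 on low salt. Fabp4, at 14.53 to 16.64, was the brightest of these markers in every mouse and made up the largest part of each sum. The summed levels overlap and the mean log2 levels do not, and the markers' part in the Cxcr7 value was not tested.

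**Figure D3:**
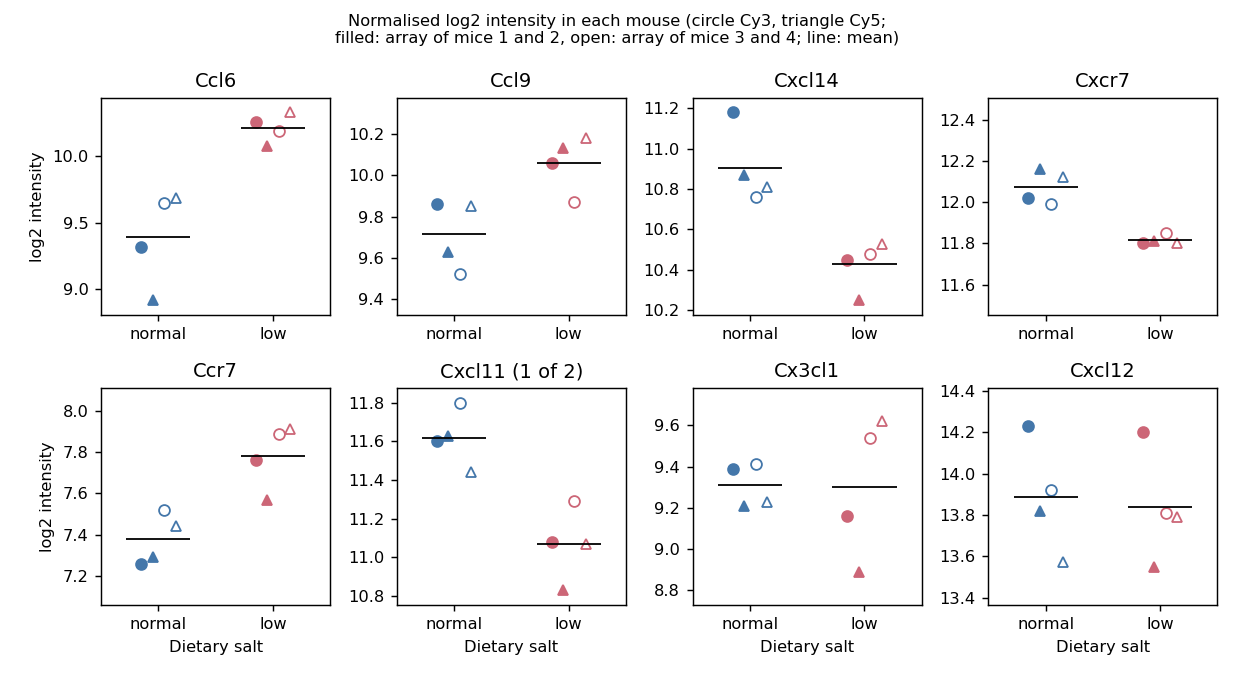
Normalised log2 intensity (vertical axis, a scale of its own in each panel) of 8 member probes in each mouse, by diet; circles are Cy3, triangles Cy5, filled marks the arrays of mice 1 and 2, open marks those of mice 3 and 4, and lines are means. The groups do not overlap for Ccl6, Ccl9, Cxcl14, Cxcr7, Ccr7 and Cxcl11 (1 of 2), and they do for Cx3cl1 and Cxcl12.

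The ligands that are made as membrane proteins, Cx3cl1 and Cxcl16, varied between the low salt arrays, whose means lay 0.55 and 0.40 apart. This was not particular to them: the gap was 0.60 for Cxcr4, 0.59 for Ccl12 and 0.50 for Ccr10. Cx3cl1 read 9.39, 9.21, 9.41 and 9.23 on normal salt and 9.16, 8.89, 9.54 and 9.62 on low salt (chr8:97306185-97306244). Low salt mice 1 and 2 were the lowest of the 8 and low salt mice 3 and 4 the highest, so that the difference of -0.01 (interval -0.42 to 0.40) averages arrays at 9.03 and 9.58. It was -0.28 leaving out low salt mice 3 and 4 and 0.27 leaving out low salt mice 1 and 2, each with 1 low salt array left. Cxcl16 read 8.27, 8.26, 8.14 and 8.15 on normal salt and 7.80, 7.69, 8.04 and 8.25 on low salt, a difference of -0.26 (interval -0.61 to 0.09). Only low salt mouse 4 reached the normal salt range; the difference was -0.46 leaving out low salt mice 3 and 4 and -0.06 leaving out low salt mice 1 and 2. Cxcr6, the receptor of Cxcl16 on T cells, read 6.61, 6.62, 6.90 and 6.70 against 6.99, 6.64, 6.58 and 6.79 by its measured probe, a difference of 0.04 (interval -0.34 to 0.43). Its other probe, which shares 50 bases with the measured one, was above background only in 2 normal salt mice and was not tested. It read 7.37 and 7.18 in normal salt mice 1 and 2, which share an array. The measured probe read 6.61 and 6.62 in the same mice.

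The remaining CXC ligands had small differences. Cxcl9, an interferon-induced ligand of Cxcr3, read 8.72, 8.62, 8.47 and 8.43 on normal salt and 8.78, 8.33, 8.59 and 8.61 on low salt by the probe at chr5:92752191-92752250, a difference of 0.02. By its other probe it read 7.42, 7.77, 7.26 and 7.17 against 7.32, 7.19, 7.54 and 7.42, a difference of -0.04. The signs differ and both values are near 0. Cxcl10, a further Cxcr3 ligand, averaged 6.87 ± 0.11 and 7.04 ± 0.32 by 1 of its 2 probes, a difference of 0.17. That probe was above background in 5 mice, 4 of them in Cy5, and the other probe in no mouse. Cxcl1 averaged 6.74 ± 0.15 and 6.86 ± 0.38, a difference of 0.12. In both, low salt mouse 4 was the highest, at 7.52 for Cxcl10 and 7.41 for Cxcl1, where no other low salt mouse passed 6.93.

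All 7 measured CC receptor probes had positive differences, from 0.06 to 0.40, with 0 past the threshold. Ccr7 kept the sign in every other setting that measured it, while Ccr2, Ccr3, Ccr8 and Ccr10 changed it in at least 1 and Ccr9 reached 0.00. Ccr7, which takes T cells and dendritic cells to lymphatics and lymph nodes, read 7.26, 7.29, 7.52 and 7.44 on normal salt and 7.76, 7.57, 7.89 and 7.91 on low salt (chr11:99005551-99005610). The groups do not overlap, and the difference was 0.40 ± 0.13 (interval 0.11 to 0.69), or 1.32-fold, with an unadjusted p of 0.0128 in limma and an adjusted p of 0.29. Neighbouring spots on the arrays differed by 0.31 in the same direction, and 0.09 was left with the local trend taken off.

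Ccr8, a receptor of T helper cells, read 7.0, 7.21, 7.32 and 7.97 against 8.04, 7.59, 7.57 and 7.48 by the end probe printed above, a difference of 0.29 (interval -0.42 to 1.01). That was 0.64 in the Cy3 mice alone and -0.06 in the Cy5 mice alone, and 0.09 with the local trend taken off. The inner probe lay between 6.21 and 6.35 in all 8 mice.

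The naming rule leaves out some genes of the chemokine family. Of 13 such genes listed 10 were measured, by 17 probes, and 0 passed the threshold (0.813% of all probes did), with 13 probes higher, 4 lower and a median of 0.09. The higher ones include all 3 probes of Cx3cr1 and all 4 of Mif, and probes of 1 gene are not independent. Cx3cr1, the receptor of Cx3cl1 on monocytes and resident macrophages, had differences of 1.0 ± 0.31, 0.90 ± 0.22 and 0.66 ± 0.21 by its 3 probes, with adjusted p of 0.277, 0.142 and 0.302 in limma. The low salt mice were above all normal salt mice on each of the 3; around the probe at 0.66 neighbouring spots differed by 0.54, and around the others by 0.04. The ligand Cx3cl1 differed by -0.01. Mif, a cytokine that also binds Cxcr2 and Cxcr4, had 4 probes at 0.60 (local difference 0.32), 0.27, 0.09 and 0.05. Ackr4, a scavenger of Ccl19 and Ccl25, had 0.54 (local difference 0.44) and -0.12.

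Genes of receptor signalling and ligand processing were also listed, 24 in all, with 21 measured by 27 probes: 0 passed the threshold, 13 probes were higher and 14 lower. Adam10, a protease that releases Cx3cl1 and Cxcl16 from the cell surface, read 10.21, 10.24, 9.89 and 9.80 on normal salt and 9.44, 9.46, 9.28 and 9.51 on low salt. Its groups do not overlap, and the difference was -0.61 ± 0.15, with an unadjusted p of 0.00271 in limma and an adjusted p of 0.134. Adam17, a related protease, had 0.26 and 0.02 by its probes. Grk3, a kinase that turns receptors off, had a difference of 0.29 ± 0.09. Rac1, a GTPase of cell movement, had probes of opposite sign, 0.64 (local difference 0.33) and -0.21. Of 21 listed genes with a part in the induction of chemokine genes, 13 were measured by 16 probes and 0 passed the threshold. The list holds cytokines, Toll-like receptors, transcription factors and other signalling genes. Its cytokines were mostly not measured: Ifnb1, Ifng, Il13, Il1a and Il4 were above background in no mouse. Tnf and Il6 were above it in 1 mouse each, Il17a in 3 and Il1b in 4. Hif1a, the oxygen-sensing factor, differed by 0.45 ± 0.13, Irf1, an interferon-induced factor, by -0.33 ± 0.11, and the NF-kB subunit Relb by 0.18, 0.18 and 0.16.

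The labelled tissue was checked against its markers: all 8 cardiomyocyte genes listed were above background, with a median difference of -0.16 over 9 probes. Across the lists for 16 cell types 0 probes passed the threshold. Among the cardiomyocyte genes, Myh6 had -0.60 (local difference -0.24) and 0.02 by its probes, Actc1 -0.38 (local difference -0.26) and Tnni3 -0.26. In that list 7 probes were lower and 2 higher, with Ryr2 the highest at 0.32. Atrial markers, such as the light chain Myl4 and the calcium pump regulator Sln, had a median of -0.90. Of their 6 measured probes 5 were lower and 1, Nppa at 0.39, was higher. Myl4 differed by -1.97 ± 0.99 and Sln by -2.16 ± 1.23, with overlapping groups. The summed atrial intensity ran from 27400 to 137000 on normal salt and from 55400 to 73500 on low salt. Nppa, the brightest of these markers in every mouse, made up the largest part of that sum. Among the endothelial markers Eng differed by -0.47, Esam by -0.57, Fabp4 by -0.89 and Tek by -0.71. The groups do not overlap for Esam, nor for Tie1 (-0.37), which falls outside the naming rule and was named after its values were seen.

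Other cell types that make or follow chemokines were also listed. Fibroblast markers had a median of -0.10 (Col1a1 0.33, Dcn -0.61). Col1a1 had a local difference of 0.46, and -0.14 was left with the local trend taken off. Smooth muscle and pericyte markers had a median of -0.16 (Pdgfrb -0.46, Rgs5 -0.65 with a local difference of -0.20). Lymphatic endothelial markers had 0.07 (Prox1 0.42). Among macrophage markers, Csf1r, the receptor of a macrophage growth factor, had 0.39 (local difference 0.20), 0.32 and -0.03 by its probes. Neutrophil markers had a median of 0.20 (Elane 0.57), with Mpo and Ngp above background in no mouse. T cell markers had 0.06 (Cd4 0.14 and -0.02), with Cd3g and Cd8a in no mouse, B cell markers 0.04 (Cd79a 0.20, Cd79b -0.11), dendritic cell markers 0.01 (Flt3 0.08, Zbtb46 -0.11 and -0.06) and mast cell markers -0.10 (Mcpt4 -0.57). Medians were 0.10 for platelet markers (Itga2b 0.10, Pf4 0.21), -0.22 for red cell markers (Hba-a1 -0.24, Hbb-bt 0.41), 0.14 for adipocyte markers (Cidec 0.21) and -0.31 for the 1 mesothelial marker measured, Wt1. Hbb-bt had a local difference of 0.47, and -0.06 was left with the local trend taken off. None of these lists had a probe past the threshold, and the part of these cells in the chemokine values was not tested.

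**Figure D4:**
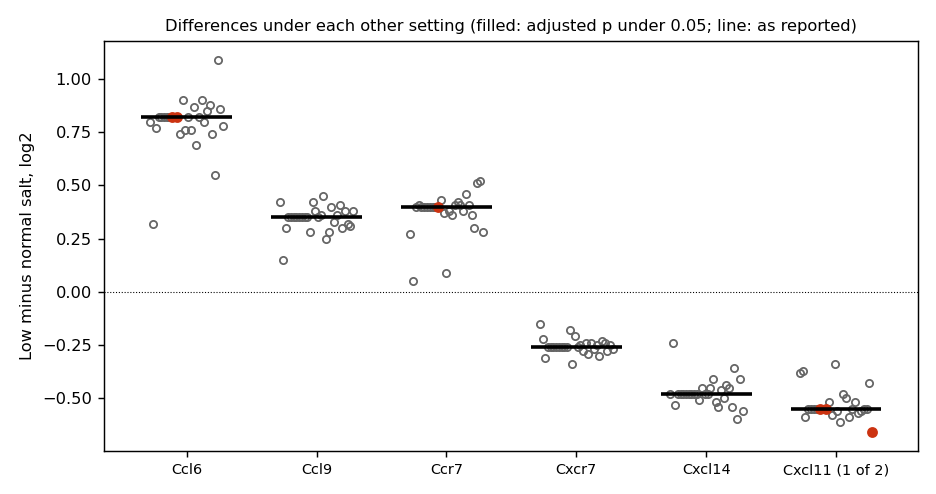
Low salt minus normal salt difference (vertical axis, log2) of the 6 member probes whose groups do not overlap, under each other setting of processing or sample choice that measured the probe (circles; filled where the adjusted p is under 0.05) beside the value reported (line). Values for Ccl6 run from 0.32 to 1.09 and those for Ccr7 from 0.05 to 0.52, and each of the 6 probes keeps its sign in those settings.

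The 6 probes with groups that do not overlap kept their sign in every other setting that measured them. Ccl6 ran from 0.32 to 1.09, Ccl9 from 0.15 to 0.45, Cxcl14 from -0.60 to -0.24, Cxcr7 from -0.34 to -0.15, Ccr7 from 0.05 to 0.52 and Cxcl11 (1 of 2) from -0.66 to -0.34. Over all 39 measured probes, 18 kept their sign in every setting that measured them. Without the array block Ccl6 had an adjusted p of 0.044 in limma and Cxcl11 (1 of 2) one of 0.0247, a fit that takes mice on 1 array as independent.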

How the data were processed

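Left ventricle RNA of 8 mice, amplified and labelled with Cy3 or Cy5, was read on 4 two-channel Agilent arrays. Per the file headers, spot and local background intensity in each channel were extracted with Agilent Feature Extraction 11.5.1.1. A column of the same tables flags spots well above background, per the file headers. A deposited series table gives a ratio per row, with a median of 1 in each column. Only 0.0132% to 0.123% of its rows equalled the scanner value of the same feature number (tolerance 0.001, log2), so it was left out.

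Using limma 3.58.1 and statmod 1.5.0 (R 4.3.3), the mean signal was background-corrected by normexp with an offset of 50, followed by loess within arrays (controls at weight 0) and Aquantile between arrays, which gives log2 values. A flagged local background was replaced by the channel median, and normexp was fitted on spots without a flag of their own, because it did not settle otherwise; this departs from the planned fit. Flagged spots were left out, and spots of a probe were averaged. Between 53.0% and 66.3% of the non-control spots of a sample were well above background, with a median intensity of 116 to 147 against a background of 15.5 to 33.5. The number of arrays limits the precision. Probes above background in at least 4 mice were tested with diet and dye as fixed terms, array as a random block (correlation 0.553), eBayes, and Benjamini-Hochberg adjusted p over 23236 probes, threshold 0.05, 2-sided. On simulated data for this comparison over 23236 probes, 70 of 100 changes of 1 log2 unit were recovered. Of changes of 0.5, 24 of 100 were recovered. There were 4 false calls, and whether false calls are more frequent in uneven parts of the arrays was not tested.

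The local trend of a sample is a running median of its deviations from the mean of all samples. It is taken over the spots within 10 rows and 10 columns on either side of a probe's spot. A local difference is the mean local trend on low salt minus that on normal salt, and parts beyond 0.2 in either direction are called uneven. Coordinates are the array design's, on mm9; gene names are the design's, updated through RefSeq for the lists. A measured member is not reported here. The others were all named, with each mouse's value where groups did not overlap, the unadjusted p was under 0.05, probes disagreed or the gene belonged to a chosen set of ligands and receptors. Of each list, up to 4 genes were named by smallest p, or 2 where none qualified. Members and lists were chosen with earlier results of these data known. Alternatives were background correction, normalisation, the filter, 1 probe per gene, the array and replicate blocks, each dye, the local trend, array weights, and leaving out each mouse or array. Promoters came from RefSeq (GRCm38.p6).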

Additional observations from a re-analysis of the deposited data

Results flagged for a closer look

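Among the 39 measured member probes, each diet group of 4 mice was examined for a mouse far from the others (the gap to the nearest mouse, over the range of the group, above Dixon's 95% critical value). Of 78 groups 3 had one, and chance gives about 1 in 20. Cxcl10, an interferon-induced ligand, was at 7.52 in low salt mouse 4, with the next low salt mouse at 6.93. The receptor Ccr2 was at 7.02 in the same mouse, with the next at 6.79. Ccl25, by the probe above background in all mice, was at 8.15 in normal salt mouse 1, with the next normal salt mouse at 7.93. Low salt mouse 4 was the highest of the 8 mice for 8 of the 39 measured member probes and low salt mouse 1 for 10. The shares of such ranks over all probes were not counted. Over all measured probes low salt mouse 4 stood apart as the highest of its diet in 0.411%. Across the mice this share ran from 0.208% to 0.77%, and that for the lowest from 0.268% to 0.797%. Each share is for 1 mouse in 1 direction, while a group counts as flagged for any of its 4 mice in either direction.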

How the results depend on the processing

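No member passed the threshold in limma as reported, and 28 other settings were run. The count of members past it was 2 with no array block (Cxcl11 1 of 2 and Ccl6, of 804 probes in all), 3 with the replicate block and 1 leaving out low salt mice 3 and 4 (Cxcl11 1 of 2, difference -0.66, adjusted p 0.0448 in limma; 1392 probes in all). It was 0 in every other setting, leaving out each mouse in turn included (0 to 0), while the count over all probes was 189 as reported, 46 with the scanner's processed signal, 58 with the local trend subtracted, 3 in even parts only, and 0 without normalisation between arrays, with each array averaged, or in either dye alone. The median member difference ran from -0.06 to 0.06. With the mouse number of the labels as a replicate block (895 probes in all), adjusted p in limma was 0.0258 for Ccl6, 0.0342 for Cxcl11 (1 of 2) and 0.0409 for Ccr7. The labels do not say that a number pairs mice, and each number also carries a dye: deviations of same-numbered mice correlated at 0.31, 0.14, 0.16 and 0.20, and at 0.09, 0.03, 0.14 and -0.01 with the dye effect removed. Of 1071 comparisons of a member probe with its reported value, 1045 stayed within the spread of the mice on the same side of the threshold, 20 moved further and 6 passed the threshold. Of the 39 member probes, 20 took the opposite sign in at least 1 setting and 1 more, Ccr9, reached 0.00. Probes not well above background in at least 4 mice were given no difference in the reported fit. With no filter on dim probes all 67 member probes were tested and 0 passed the threshold.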
